A study of Mus musculus with 62 samples.

Results

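The genes described here are 33 mouse genes of B cells and plasma cells, the cells that recognise antigen through a membrane immunoglobulin and that secrete antibody. They were taken by name from a fixed list: surface proteins of mature B cells, signalling proteins of the B cell receptor, transcription factors of the B lineage, genes of antibody-secreting cells, the survival factor BAFF with its receptors, and a follicle chemokine with its receptor. A gene counted as measured where a transcript cluster, a set of probes summarised to 1 value, carried its symbol alone. This held for 27 of the 33 listed genes, among 14824 genes so named and 16715 transcript clusters. Cd38, Bank1, Spib, Jchain, Pou2f2 and Tnfrsf13c were not measured by such a cluster.

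RNA of the right lower lung lobe was hybridised to 62 exon arrays (Affymetrix Mouse Exon 1.0 ST) in 48 male mice of the inbred strains BALB/cJ and C57BL/6J. All mice, controls included, were sensitised by intraperitoneal injection of Der p 1, a protease and major allergen of the house dust mite, at 10 µg on day 1 and again on day 8. On day 15 the challenged mice received 50 µg of Der p 1 and the controls PBS, and lungs were taken on day 18, 72 h later. Of the BALB/cJ mice 11 were controls and 14 were challenged, and of the C57BL/6J mice 11 and 12, and the mean over the repeat arrays was used for the 7 mice with 3 arrays each. The control group therefore stands for sensitised and not for untreated mice. The sources used here do not state the age of the mice.

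The B cell receptor is a membrane immunoglobulin joined to the signalling chains CD79A and CD79B, and kinases and adaptors inside the cell pass its signal on. An activated B cell can keep its mature programme, which Pax5 and Ebf1 maintain, or become a plasma cell under Irf4 and Prdm1, which shuts the B cell programme down. In mice sensitised to an allergen, B cells make allergen-specific IgE and IgG1, and lungs with lasting inflammation can form B cell follicles around airways and vessels, to which the chemokine CXCL13 attracts cells that carry CXCR5.

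Genomic windows are shown for 4 genes that rose with challenge in C57BL/6J mice (Fcrl5, Blnk, Pou2af1 and Irf4) and for Cd22, which holds a match to a B lineage motif. Each runs from 250 bases before to 50 bases after the annotated start, 5′ to 3′ on the strand of the gene, and was taken from RefSeq on GRCm38.p6. Capitals mark matches to the octamer ATGCAAAT, which the factor Pou2f2 binds together with Pou2af1, on either strand, or to CCCNNGGG, the core of the Ebf1 motif, which reads the same on both strands.
Fcrl5, chr3:87435532-87435831, plus strand: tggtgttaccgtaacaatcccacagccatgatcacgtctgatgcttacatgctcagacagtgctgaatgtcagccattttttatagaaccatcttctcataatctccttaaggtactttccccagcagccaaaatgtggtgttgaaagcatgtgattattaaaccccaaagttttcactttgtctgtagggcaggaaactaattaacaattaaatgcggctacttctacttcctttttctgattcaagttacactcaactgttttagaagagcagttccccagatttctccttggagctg
Blnk, chr19:40994172-40994471, minus strand: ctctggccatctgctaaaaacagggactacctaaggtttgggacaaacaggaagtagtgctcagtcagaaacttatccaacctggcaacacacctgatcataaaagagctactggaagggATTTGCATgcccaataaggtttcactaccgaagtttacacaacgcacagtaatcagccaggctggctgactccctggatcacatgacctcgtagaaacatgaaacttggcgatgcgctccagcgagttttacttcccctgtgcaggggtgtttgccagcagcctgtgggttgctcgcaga
Pou2af1, chr9:51213440-51213739, plus strand: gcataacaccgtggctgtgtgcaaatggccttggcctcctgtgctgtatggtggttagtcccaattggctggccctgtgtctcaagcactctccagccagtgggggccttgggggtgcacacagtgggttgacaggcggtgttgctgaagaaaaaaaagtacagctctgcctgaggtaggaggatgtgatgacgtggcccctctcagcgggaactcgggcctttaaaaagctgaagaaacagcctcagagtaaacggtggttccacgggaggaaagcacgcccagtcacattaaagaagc
Irf4, chr13:30748983-30749282, plus strand: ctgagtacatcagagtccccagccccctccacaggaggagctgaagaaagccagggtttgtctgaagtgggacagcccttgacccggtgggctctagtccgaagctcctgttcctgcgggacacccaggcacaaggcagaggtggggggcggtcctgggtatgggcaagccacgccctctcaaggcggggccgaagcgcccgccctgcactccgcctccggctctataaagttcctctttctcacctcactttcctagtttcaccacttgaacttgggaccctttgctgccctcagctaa
Cd22, chr7:30878979-30879278, minus strand: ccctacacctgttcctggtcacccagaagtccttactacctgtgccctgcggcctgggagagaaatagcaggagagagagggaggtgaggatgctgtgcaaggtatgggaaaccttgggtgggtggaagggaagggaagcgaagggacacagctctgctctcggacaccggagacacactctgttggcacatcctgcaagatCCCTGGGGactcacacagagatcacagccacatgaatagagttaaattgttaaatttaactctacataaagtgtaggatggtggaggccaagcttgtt

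Windows were matched by symbol for 27 of the 33 genes, 31 windows in all, and not for Cd40, Cxcr5, Blk, Ms4a1, Mzb1 and Cd79b. The octamer stood in 1 of the 31 windows (3.23%), that of Blnk, where it began 130 bases before the start and read ATTTGCAT on the strand of the gene. Of all 32851 windows in the table, 570 held the octamer (1.74%). The Ebf1 core stood in 4 of the 31 windows (12.9%), those of Cd22, Sdc1, Bank1 and Spib, and in 13.7% of all windows. Neither the Blnk nor the Cd22 window held both motifs. A match is a run of letters in a window and was not tested as a binding site.

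Each measured gene had 1 transcript cluster, and values are the deposited log2 levels, compared between mice of 1 gene and never between genes, since probes differ. Repeat arrays of a mouse differed with a median SD of 0.20 over the 27 genes (0.09 for Blnk to 0.56 for Cd79a), against 0.19 over all clusters. Array medians lay between 6.39 and 6.62. The SD over all clusters of an array, a measure of how widely its values spread, ranged from 1.44 in the challenged C57BL/6J mouse532 to 2.09, and its group mean was 1.94 and 1.95 in control and challenged BALB/cJ mice and 1.96 and 1.86 in control and challenged C57BL/6J mice. Mouse numbers began with 5 in 20 mice and with 6 in 28 (series 5 and series 6, each with mice of all 4 groups), and the sources used here do not say what this number marks. Whether probes lie over bases that differ between the strains was not tested, and fewer cells of a type and less RNA per cell cannot be told apart in RNA of a whole lobe.

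After Der p 1, 6 of the 27 genes rose and 1 fell in C57BL/6J mice, a share near that of all clusters, and in BALB/cJ mice none passed the test. Fcrl5, Irf4, Btk, Pou2af1, Blnk and Cd37 were higher in challenged C57BL/6J mice by 0.49 to 0.81 on the log2 scale, and Prdm1 was lower by a log2 difference of −0.37. The test was limma's moderated test over all clusters, with an adjusted p (Benjamini-Hochberg) below 0.05. In BALB/cJ the median difference of the 27 genes was −0.07 (−0.03 over all clusters), 2 had an unadjusted p below 0.05 (Pax5 and Irf4), and 1.93% of all clusters (323) passed. An unadjusted p below 0.05 was found there for 2005 of all 16715 clusters. Without the BALB/cJ mice mouse633 and mouse634, left out because earlier results of these data showed their response going against their group, 809 clusters (4.84%) passed and still none of the 27, and in series 6 alone 0 clusters passed. In C57BL/6J the 7 genes made up 25.9% of the 27 against 18.8% of all clusters, and the median difference was 0.31 against 0.07. The shares were 22.2% against 24.3% in series 6 alone, 33.3% against 42.1% with array weights, 26.1% against 25% without the dimmest 25% of clusters, and 27.3% against 26% without the dimmest 50%. With number series as a covariate they were 40.7% against 32.8%, and with array SD as a covariate 51.9% against 13.5%. With both covariates they were 29.6% against 8.51%. Since the excess over all clusters came and went with the fit, the count is taken as no result about the genes as a group. The single genes are described below. With each array centred on its median, 5 genes were higher and 2 lower in C57BL/6J (Sdc1 joined Prdm1 and Btk no longer passed), and the share of lower calls over all clusters moved from 47.7% to 66.8%.

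The difference between the responses of the strains was tested itself. Fcrl5 passed, with a smaller response in BALB/cJ, and the other 26 genes did not. That is 3.70% of the 27 genes, against 0.0120% of all clusters, where 2 passed. The response of BALB/cJ minus that of C57BL/6J was below 0 for 22 of the 27 genes, with a median of −0.39 (−0.05 over all clusters), and 7 of them had an unadjusted p below 0.05. Of all 16715 clusters, 9640 lay below 0 and 1810 had an unadjusted p below 0.05. Since single genes other than Fcrl5 did not pass, their responses are not shown to differ between the strains.

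**Figure D1:**
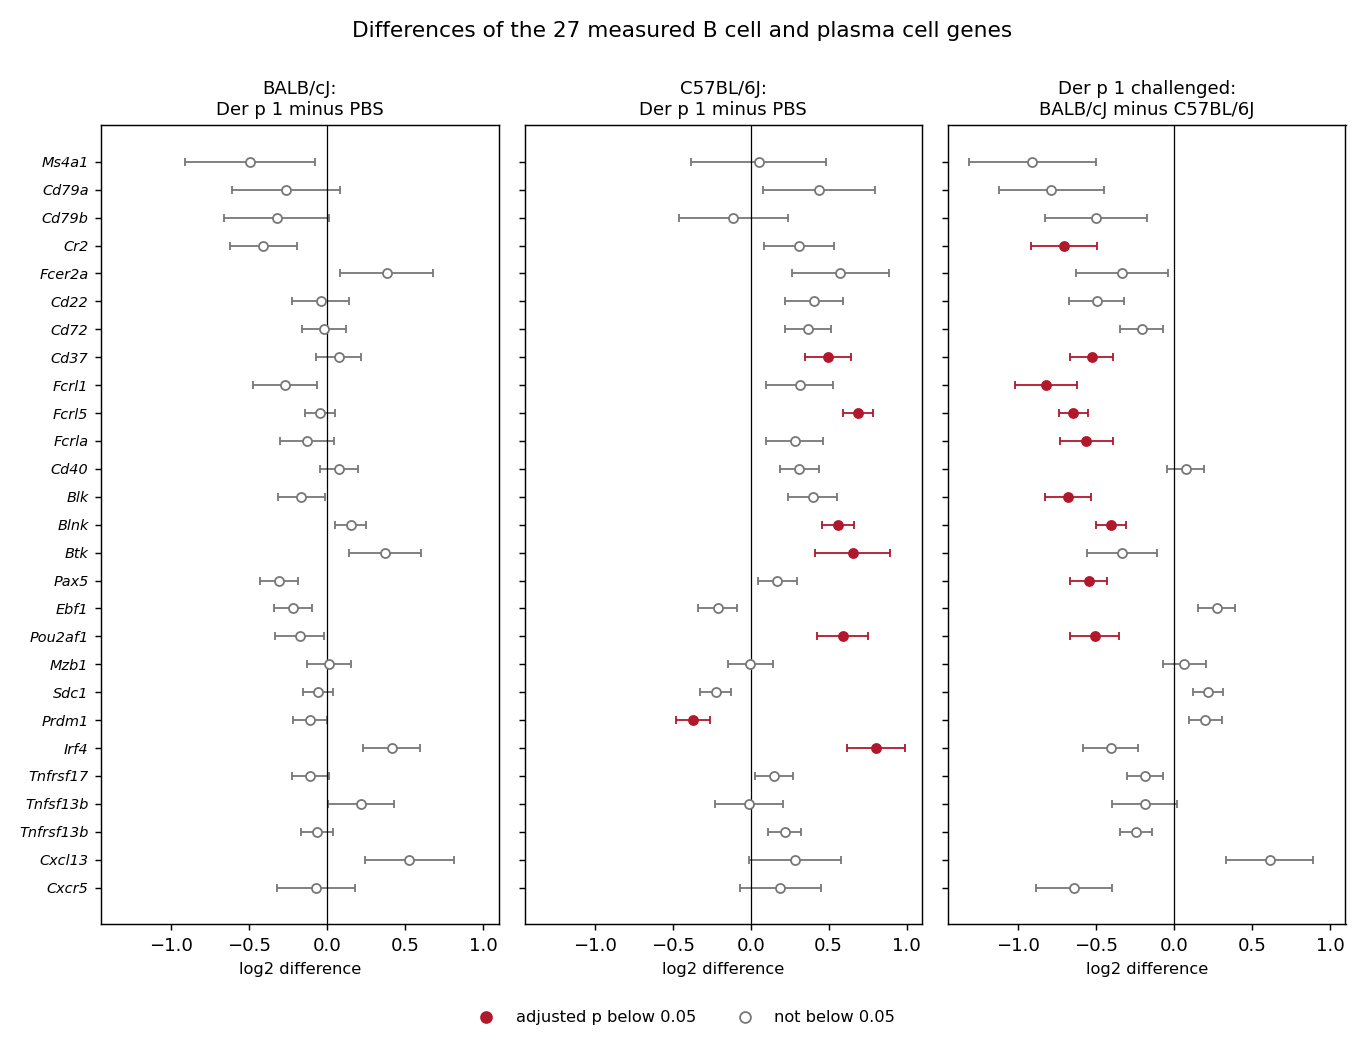
Log2 differences (points) with their standard errors (bars) of the 27 measured genes, for Der p 1 minus PBS in BALB/cJ and in C57BL/6J and for BALB/cJ minus C57BL/6J among challenged mice. Filled points passed the test: 0 genes in the left panel, 7 in the middle panel and 9, each lower in BALB/cJ, in the right panel.

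Among the surface proteins of mature B cells, 12 of 13 were measured, and 2 rose in challenged C57BL/6J mice (16.7%, no more than the 18.8% of all clusters). Fcrl5, an Fc receptor-like protein that in mice marks marginal zone and B-1 cells, B cells that respond early and without T cell help, ranged from 3.84 to 4.74 (median 4.20) in control C57BL/6J mice and from 4.28 to 5.23 (median 4.89) in challenged ones. In BALB/cJ it ranged from 3.93 to 4.70 (median 4.21) in controls and from 4.05 to 4.61 (median 4.17) after challenge. All 12 challenged C57BL/6J mice lay above the control mean of their strain, though the ranges overlapped. The difference was 0.69 ± 0.10 in C57BL/6J (standard error, limma adjusted p = 2.63e-05) and −0.05 ± 0.09 in BALB/cJ (adjusted p = 0.924). The strain difference of these responses was −0.73 ± 0.14 (adjusted p = 0.0177). Within series 6 the lowest challenged C57BL/6J mouse stood at 4.79 and the highest control at 4.35, so these groups did not overlap there.

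Within series 6 the Fcrl5 response was 0.78 in C57BL/6J and the strain difference −0.70, and both passed; within series 5, with 4 challenged C57BL/6J mice, they were 0.51 and −0.71 and neither passed. The call of the strain difference was lost after quantile normalization of the arrays (−0.52, adjusted p = 0.155), with only the first array of each mouse (−0.77, adjusted p = 0.0506), and with array SD and number series as covariates (−0.56, adjusted p = 0.152). Over all alternatives the adjusted p ran from 0.00237 to 0.872. Levels of Fcrl5 were among the dimmest 25% of clusters, where background and low expression cannot be told apart in the deposited values, so no fold is given. Its highest value after challenge, 5.23, was that of mouse532, the array with the narrowest spread. Leaving out each mouse in turn left the C57BL/6J response between 0.66 and 0.74 and the call in place.

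Cd37, a tetraspanin of the B cell surface, ranged from 7.29 to 8.60 (median 7.51) in control and from 7.45 to 8.53 (median 8.33) in challenged C57BL/6J mice. It rose by 0.49 ± 0.15 (1.41-fold, adjusted p = 0.0164), and 9 of 12 challenged mice lay above the control mean. The range of the challenged mice lay within that of the controls, whose highest mouse was mouse657. Within series 6 the difference was 0.61, and within series 5 it was 0.14 and did not pass. In BALB/cJ the means were 7.52 in controls and 7.60 after challenge (SDs of 0.30 and 0.34), a difference of 0.07 ± 0.14.

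The other 10 measured surface genes did not pass in either strain. With number series as a covariate Cd22, Cd72 and Cd40 passed in C57BL/6J, where 32.8% of all clusters did. With array SD as a covariate these genes passed too, with Cd79a, Cr2, Fcer2a and Fcrla, against 13.5% of all clusters. Ms4a1, which encodes CD20, the target of B cell depleting antibodies, had means of 6.77 ± 0.99 (SD, n = 11) and 6.27 ± 0.97 (n = 14) in control and challenged BALB/cJ mice and of 7.13 ± 1.22 (n = 11) and 7.18 ± 1.20 (n = 12) in C57BL/6J. Cd79a stood at 7.30 ± 0.79 and 7.03 ± 0.56 in BALB/cJ and at 7.38 ± 1.20 and 7.81 ± 1.02 in C57BL/6J, in the same order of groups. These SDs of about 1 on the log2 scale left standard errors of 0.35 to 0.43 on the challenge differences of both genes. Cd79b, the partner chain, had means of 8.60 ± 0.74 and 8.28 ± 0.80 in BALB/cJ and of 8.89 ± 0.91 and 8.78 ± 1.04 in C57BL/6J. Fcer2a (CD23, the low affinity IgE receptor) was the surface gene with the largest difference above 0 in BALB/cJ, 0.38 ± 0.30 (adjusted p = 0.721), and had 0.57 ± 0.31 in C57BL/6J (adjusted p = 0.180). Its group means were 6.15 ± 0.74 and 6.53 ± 0.93 in BALB/cJ and 6.29 ± 0.71 and 6.87 ± 0.68 in C57BL/6J.

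Cd22, an inhibitory lectin that binds sialic acid and whose window holds the Ebf1 core, had means of 6.19 ± 0.34 and 6.15 ± 0.42 in BALB/cJ and of 6.24 ± 0.51 and 6.65 ± 0.55 in C57BL/6J, a challenge difference of 0.41 ± 0.19 in the latter (adjusted p = 0.113). Cr2 (the complement receptor CD21), Fcrl1 and Fcrla, further Fc receptor-like proteins, the inhibitory receptor Cd72 and the co-stimulatory receptor Cd40 had C57BL/6J differences of 0.28 to 0.37, with adjusted p-values from 0.0689 for Cd72 to 0.309 for Cr2. Means of Cr2 were 4.95 ± 0.50 and 4.54 ± 0.39 in BALB/cJ and 4.94 ± 0.71 and 5.25 ± 0.63 in C57BL/6J. Those of Fcrl1 were 5.37 ± 0.38 and 5.10 ± 0.33 in BALB/cJ and 5.60 ± 0.70 and 5.92 ± 0.65 in C57BL/6J. Those of Fcrla were 5.475 ± 0.35 and 5.345 ± 0.35 in BALB/cJ and 5.62 ± 0.53 and 5.91 ± 0.56 in C57BL/6J. Of the 12 measured surface genes, 11 had a difference above 0 in C57BL/6J and 3 in BALB/cJ, with medians of 0.34 and −0.09. Over all 16715 clusters, 9880 lay above 0 in C57BL/6J and 6989 in BALB/cJ.

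Of the receptor signalling proteins, Blk, Blnk and Btk were measured, and Blnk and Btk rose in C57BL/6J (2 of 3, against 18.8% of all clusters). Blnk, the adaptor that links the receptor kinase Syk to Btk and phospholipase C gamma, and the 1 gene whose window held the octamer, ranged from 5.77 to 6.42 (median 5.99) in control and from 6.22 to 6.87 (median 6.63) in challenged C57BL/6J mice. All 12 challenged mice lay above the control mean, with overlap of the ranges, and the rise was 0.56 ± 0.10 (1.48-fold, adjusted p = 0.000233). Within series 6 the lowest challenged mouse, at 6.46, lay above the highest control, at 6.42. The difference was 0.58 within series 6 and 0.48 within series 5, where it did not pass (adjusted p = 0.0814). In BALB/cJ, Blnk ranged from 5.69 to 6.47 (median 6.01) in controls and from 5.80 to 6.73 (median 6.06) after challenge, a difference of 0.15 ± 0.10 (adjusted p = 0.616).

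Btk, a kinase that myeloid cells also carry, had means of 5.47 ± 0.49 and 6.13 ± 0.63 in control and challenged C57BL/6J mice, a rise of 0.65 ± 0.24 (adjusted p = 0.0474), with 10 of 12 challenged mice above the control mean. This call was the least stable of the 7. It was lost in 7 of 15 alternatives, among them both series taken alone, and on leaving out any 1 of 18 mice, with an adjusted p of up to 0.107 without mouse659. In BALB/cJ the means were 5.43 ± 0.56 and 5.80 ± 0.67, a difference of 0.37 ± 0.23 that did not pass. Btk passed there with number series as a covariate without mouse633 and mouse634, where 7.46% of all clusters passed. Blk, a Src family kinase of B cells, had means of 5.90 ± 0.32 and 5.73 ± 0.25 in BALB/cJ and of 6.01 ± 0.48 and 6.41 ± 0.46 in C57BL/6J, where its difference of 0.40 ± 0.16 had an adjusted p of 0.0649. It passed there with number series or array SD as the only covariate.

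Of the B lineage transcription factors, Pou2af1, Pax5 and Ebf1 were measured, and Pou2af1 rose in C57BL/6J (1 of 3, against 18.8% of all clusters). Pou2af1, a coactivator that joins octamer-binding factors and is needed for germinal centres, ranged from 5.61 to 7.30 (median 6.58) in control and from 6.41 to 7.85 (median 7.03) in challenged C57BL/6J mice. It was above the control mean in 11 of 12 challenged mice and higher by 0.59 ± 0.16 (1.51-fold, adjusted p = 0.00974). In BALB/cJ it ranged from 6.11 to 7.28 (median 6.70) in controls and from 5.99 to 7.11 (median 6.53) after challenge, and 10 of 14 challenged mice lay below the control mean (−0.18 ± 0.16, adjusted p = 0.773). Its response differed between the strains by −0.77 ± 0.23, the largest such value of the 27 genes in size, with an unadjusted p of 0.00149 that did not pass after adjustment (0.402). The C57BL/6J difference was 0.52 in each number series, and passed in series 6 alone.

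Pax5, the factor that commits cells to the B lineage and holds them there, ranged from 6.04 to 6.90 (median 6.31) in control and from 5.51 to 6.54 (median 6.05) in challenged BALB/cJ mice. In BALB/cJ 13 of 14 challenged mice lay below the control mean, with a difference of −0.31 ± 0.12 that did not pass (adjusted p = 0.218). With array weights, which give less weight to arrays far from the model, it passed as lower, and with the other alternatives it did not. In C57BL/6J, Pax5 had means of 6.45 ± 0.28 and 6.62 ± 0.39 in control and challenged mice (0.17 ± 0.13). Ebf1, which acts ahead of Pax5 in development and is also found in stromal cells, differed by −0.22 ± 0.12 in BALB/cJ and by −0.21 ± 0.13 in C57BL/6J, and did not pass in either.

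**Figure D2:**
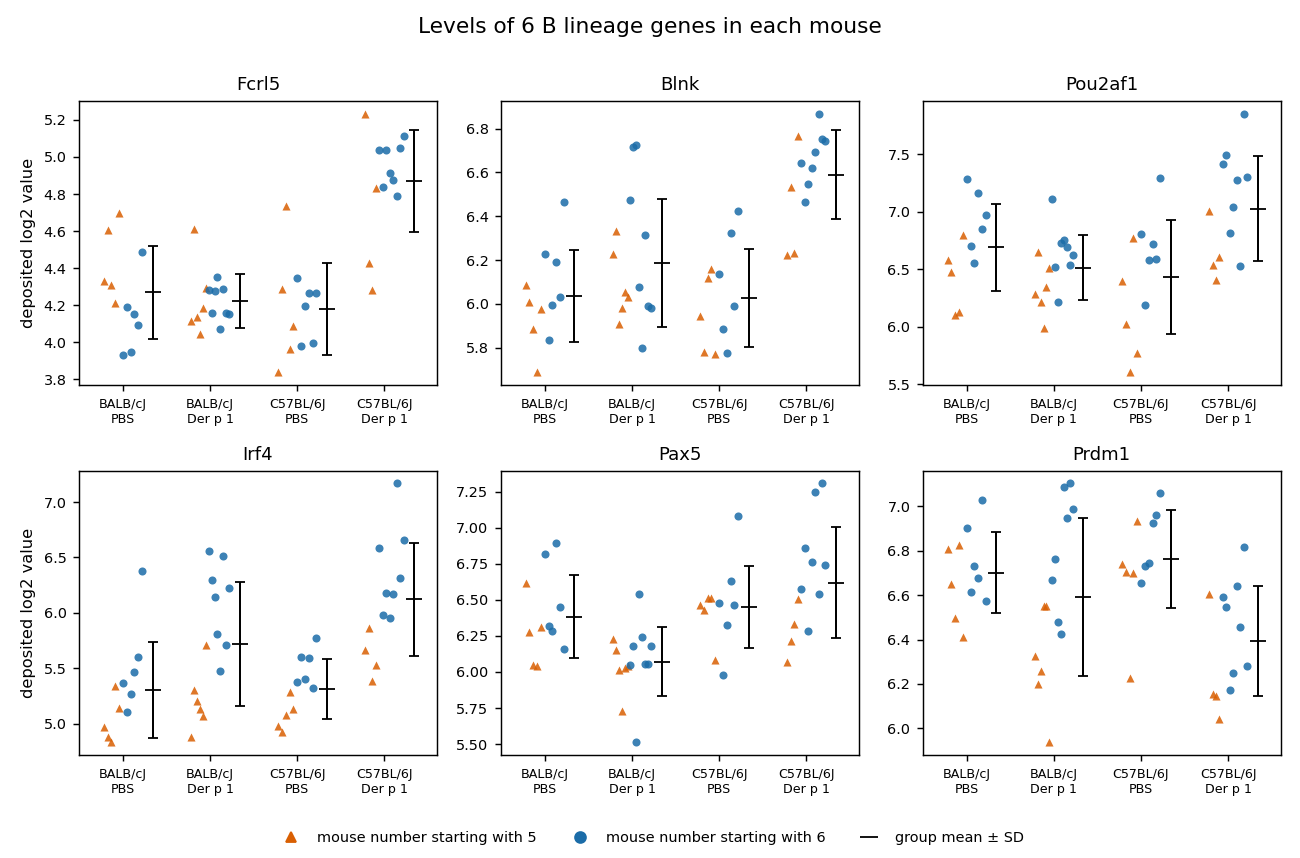
Deposited log2 levels of Fcrl5, Blnk, Pou2af1, Irf4, Pax5 and Prdm1 in each of the 48 mice by strain and challenge; triangles and circles separate mouse numbers that start with 5 and with 6, and bars give the mean ± SD of a group. Challenged C57BL/6J mice are the highest group for Fcrl5 (mean 4.87), Blnk (6.59), Pou2af1 (7.02) and Irf4 (6.12) and the lowest for Prdm1 (6.39).

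Of the genes of antibody-secreting cells, 5 of 6 were measured, and they did not move one way. In C57BL/6J 1 passed as higher and 1 as lower (2 of 5, against 18.8% of all clusters). Irf4, a factor needed for plasma cells that activated T cells, dendritic cells and macrophages also express, ranged from 4.93 to 5.77 (median 5.32) in control and from 5.38 to 7.17 (median 6.07) in challenged C57BL/6J mice. All 12 challenged mice lay above the control mean and the rise was 0.81 ± 0.19 (adjusted p = 0.00222), 0.87 within series 6 and 0.53 within series 5, where it did not pass. In BALB/cJ, Irf4 ranged from 4.84 to 6.37 (median 5.27) in controls and from 4.88 to 6.55 (median 5.71) after challenge, a difference of 0.41 ± 0.18 (adjusted p = 0.312). It passed in BALB/cJ with array SD and number series as covariates, and with number series as a covariate without mouse633 and mouse634. The highest BALB/cJ control, at 6.37, was mouse633. That mouse was also the highest control of its strain for Blnk, Btk, Mzb1, Tnfsf13b and Cxcl13.

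Prdm1, the repressor (Blimp-1) that drives plasma cell differentiation and is also found in T cells and some epithelia, fell by 0.37 ± 0.11 in challenged C57BL/6J mice (adjusted p = 0.0168). It ranged from 6.23 to 7.06 (median 6.74) in their controls and from 6.04 to 6.82 (median 6.37) after challenge. Of the 12 challenged mice 11 lay below the control mean, and the ranges overlapped. The fall did not pass with array SD as a covariate nor in series 5 alone. In BALB/cJ the means were 6.70 in controls and 6.59 after challenge (SDs of 0.18 and 0.35), a difference of −0.11 ± 0.11. Irf4 and Prdm1, which work together in plasma cell differentiation, passed in opposite directions in the same mice.

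Mzb1, an endoplasmic reticulum protein that helps assemble and secrete antibody, had means of 6.14 ± 0.39 and 6.15 ± 0.42 in BALB/cJ and of 6.09 ± 0.23 and 6.09 ± 0.32 in C57BL/6J. Its challenge differences were 0.01 ± 0.14 in BALB/cJ and 0.00 ± 0.14 in C57BL/6J. Tnfrsf17 (BCMA), the receptor on long-lived plasma cells, had the dim levels of 4.24 ± 0.16 and 4.13 ± 0.28 in BALB/cJ and 4.17 ± 0.34 and 4.32 ± 0.37 in C57BL/6J. Neither gene passed in a comparison of challenge or strain with equal weights for all arrays. With array weights Tnfrsf17 passed for challenge in C57BL/6J, where 42.1% of all clusters did, and for the strain difference of the response. Sdc1 (CD138), a proteoglycan of plasma cells that lung epithelium also carries, had means of 9.32 ± 0.29 and 9.26 ± 0.20 in BALB/cJ and of 9.27 ± 0.16 and 9.04 ± 0.26 in C57BL/6J, a difference of −0.22 ± 0.10 in the latter (adjusted p = 0.102). Among 19 listed genes of immunoglobulin and surrogate light chains, 1 was measured by a cluster of its own, Vpreb3, so antibody transcripts themselves are not analysed here. Vpreb3 differed by −0.22 in BALB/cJ and −0.43 in C57BL/6J and did not pass.

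Tnfsf13b (BAFF), the cytokine that keeps mature B cells alive and that myeloid and stromal cells make, ranged from 7.16 to 8.72 in control and from 7.13 to 9.06 in challenged BALB/cJ mice, and from 7.63 to 8.85 and from 6.72 to 9.09 in C57BL/6J. Its challenge differences were 0.21 ± 0.21 and −0.01 ± 0.22. Tnfrsf13b (TACI), a BAFF and APRIL receptor, differed by −0.07 ± 0.10 and 0.22 ± 0.11. Neither passed in either strain.

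Cxcl13, made by follicular stromal cells and, in inflamed tissue, by macrophages, ranged from 6.25 to 8.59 (median 7.17) in control and from 6.39 to 9.03 (median 7.59) in challenged BALB/cJ mice. The difference of 0.52 ± 0.29 did not pass (adjusted p = 0.493), and 10 of 14 challenged mice lay above the control mean; it passed with array weights. In C57BL/6J the means were 6.74 ± 0.46 and 7.02 ± 0.88, a difference of 0.28 ± 0.30. Cxcr5, the receptor, had means of 4.46 ± 0.61 and 4.38 ± 0.44 in BALB/cJ and of 4.84 ± 0.65 and 5.03 ± 0.85 in C57BL/6J, and its challenge differences of −0.07 ± 0.25 and 0.19 ± 0.26 did not pass.

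The next question was whether the strains differed at the same treatment. In controls no gene of the 27 passed, against 4.66% of all clusters, and 2 (Cd40 and Ebf1) had an unadjusted p below 0.05. The same held for 2100 of all 16715 clusters in controls. Among challenged mice 9 genes were lower in BALB/cJ than in C57BL/6J and none was higher. That is 33.3% of the 27 against 13.3% of all clusters, with a median of −0.41 against −0.06. Without the dimmest 50% of clusters, which leaves 11 of the genes, the shares were 18.2% and 17.9%. The 9 were the surface genes Fcrl1, Cr2, Fcrl5, Fcrla and Cd37, the signalling genes Blk and Blnk, and the factors Pax5 and Pou2af1. In this fit no gene of antibody-secreting cells, of the BAFF group or of the chemokine pair was among them. With number series as a covariate Irf4 and Cxcr5 passed as lower in BALB/cJ and Cxcl13 as higher. With array SD as a covariate Irf4, Tnfsf13b and Cxcr5 passed as lower. With array centring the same count of 9 was lower, while the share of lower calls over all clusters moved from 51.7% to 36.3%. This comparison shares the challenged C57BL/6J mice with the challenge comparison of that strain. Several of the 9 genes also vary together from mouse to mouse, as described below, so they are not separate observations.

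Fcrl1, an Fc receptor-like protein that activates B cells, ranged from 4.599 to 5.54 (median 5.12) in challenged BALB/cJ and from 5.10 to 7.05 (median 5.89) in challenged C57BL/6J mice. All 14 BALB/cJ mice lay below the C57BL/6J mean, and the difference was −0.82 ± 0.20 (limma adjusted p = 0.00391). Cr2 ranged from 4.002 to 5.24 (median 4.42) and from 4.37 to 6.30 (median 5.07), with a difference of −0.71 ± 0.21 (adjusted p = 0.0191) and all 14 BALB/cJ mice below the C57BL/6J mean. For both genes the ranges overlapped. Cr2 was among the dimmest 25% of clusters and lost its call after quantile normalization of the arrays, as did Fcrla (−0.56 ± 0.17, adjusted p = 0.0228).

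Pax5 ranged from 5.51 to 6.54 in challenged BALB/cJ and from 6.07 to 7.31 (median 6.56) in challenged C57BL/6J mice, a difference of −0.55 ± 0.12 (1.46-fold, adjusted p = 0.000945), with all 14 BALB/cJ mice below the C57BL/6J mean. Blk differed by −0.68 ± 0.15 (adjusted p = 0.00104), Fcrl5 by −0.65 ± 0.09 (adjusted p = 9.75e-07), Cd37 by −0.53 ± 0.14 (adjusted p = 0.00803), Pou2af1 by −0.51 ± 0.15 (adjusted p = 0.0217) and Blnk by −0.40 ± 0.10 (adjusted p = 0.00276). Ms4a1 and Cd79a differed by more than most of these, −0.91 ± 0.41 and −0.79 ± 0.34. Their standard errors were wider, and they did not pass (adjusted p = 0.121 and 0.108). Cd22 stood just outside at −0.50 ± 0.18 (adjusted p = 0.0517). With number series as a covariate Ms4a1 and Cd22 passed as lower and Cd79a did not, and 27% of all clusters passed. With array SD as a covariate Ms4a1, Cd79a and Cd22 passed as lower, and 10.6% of all clusters passed. Each of the 9 differences kept its sign within both number series. In series 6 alone each passed, and in series 5 alone, with 6 and 4 mice, none did: the values ran from −0.22 for Fcrla to −0.47 for Blk in series 5 and from −0.41 for Blnk to −0.99 for Fcrl1 in series 6. In series 6 alone Cd22 (−0.49) was lower too, and Prdm1 (0.34) and Sdc1 (0.33) were higher in BALB/cJ.

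B cell genes were higher in series 6 than in series 5. With the groups as a covariate, 22 of the 27 genes (81.5%) were higher in series 6 and none was lower, against 62.5% of all clusters that differed in either direction, with medians of 0.52 and −0.06. Ms4a1 was higher by 1.66 ± 0.19 (adjusted p = 1.37e-09), Fcer2a by 1.22 ± 0.13, Cd79b by 1.16 ± 0.18 and Cd79a by 0.93 ± 0.22. The genes that did not pass were Fcrl5, Ebf1, Sdc1, Tnfrsf17 and Tnfrsf13b. Array SD was also higher in series 6 (1.98 against 1.86). With array SD as a further covariate the difference was 1.22 for Ms4a1 and still passed, and 0.38 for Cd79a and did not (adjusted p = 0.182).

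A mean was taken over 9 core genes of mature B cells: Cd79a, Cd79b, Ms4a1, Cr2, Fcer2a, Pax5, Cd22, Fcrla and Blk. It was 6.04 in series 5 and 6.72 in series 6 among control BALB/cJ mice, and 5.78 and 6.55 among challenged ones. In C57BL/6J it was 6.01 and 6.998 in controls and 6.19 and 7.15 after challenge. The step between the series was therefore 0.68 to 0.99 wide where the step between control and challenged mice of a series and strain was at most 0.27 in size. The lowest core means were those of mouse521 among control BALB/cJ mice (5.46) and mouse525 among challenged ones (5.55), and the highest was that of mouse657, a control C57BL/6J mouse (7.97).

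**Figure D3:**
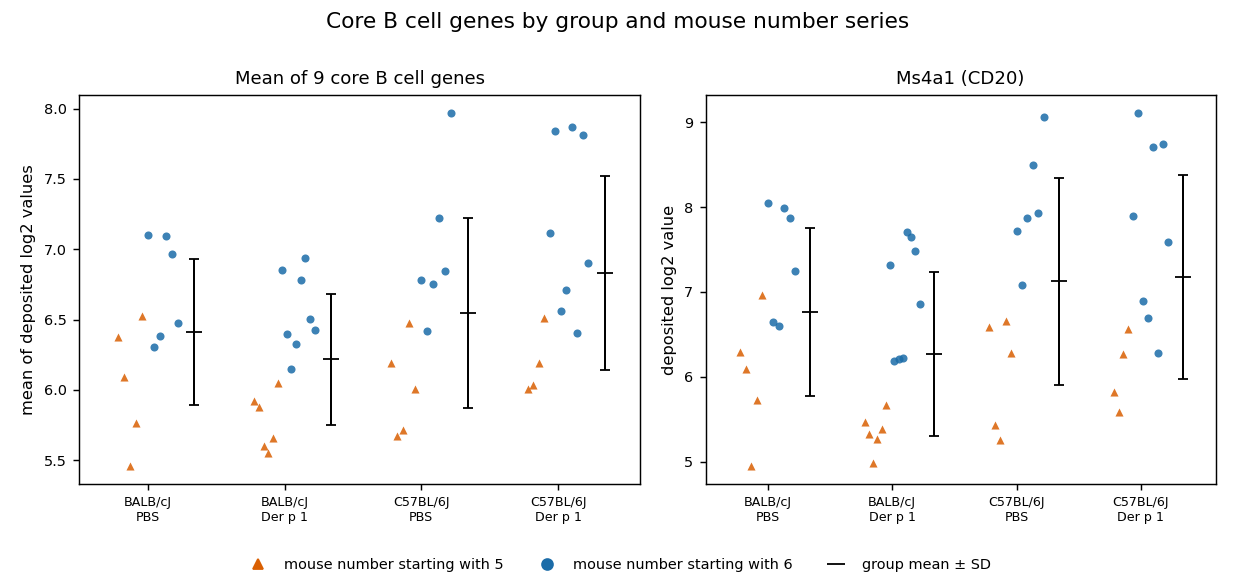
Mean of the deposited log2 values of 9 core B cell genes (left) and level of Ms4a1 (right) in each mouse by strain and challenge, with mouse numbers that start with 5 as triangles and with 6 as circles; bars are the group mean ± SD. In each of the 4 groups the mice of series 5 lie mostly below those of series 6, and the groups overlap widely.

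Over the 48 mice, after the mean of each group was removed, most surface genes and factors followed the core mean. This is a description: all values of a mouse come from the same arrays and share their spread and number series. Against the mean of the other 8 core genes, Pearson's r was 0.95 for Ms4a1, 0.94 for Cd79b, 0.93 for Cd22 and 0.92 for Cr2, and 0.68 for Pax5, the lowest of the 9. Outside the core, r was 0.91 for Fcrl1, 0.86 for Pou2af1, 0.83 for Cxcr5 and 0.83 for Cd72. With the number series removed as well, these 4 had 0.86, 0.78, 0.81 and 0.62.

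The genes that rose in C57BL/6J did not all follow the core. Within number series r was 0.78 for Pou2af1 and 0.63 for Cd37, but 0.23 for Blnk, 0.00 for Fcrl5, −0.02 for Irf4 and −0.13 for Btk. Cxcl13 had −0.07 and Tnfsf13b 0.20. Tnfrsf17, with −0.35, ran against the core. Its levels and those of Fcrl5 also ran against array SD (r = −0.75 and −0.51), while those of Ms4a1 and Tnfsf13b ran with it (0.69 and 0.75). For Fcrl5 the SD between repeat arrays (0.23) was as wide as that between mice within groups (0.23). Its r near 0 therefore cannot show whether it varies apart from the core.

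The 10 genes outside the module most like the core mean over the 48 mice were Btla, B3gnt5, Ppp3cc, Stap1, Limd2, Slc9a7, 2610008E11Rik, Akap7, Hvcn1 and Orc3, with r from 0.87 to 0.91. Btla encodes an inhibitory receptor of lymphocytes, and Stap1 a B cell adaptor. Within number series their r was 0.69 to 0.81, highest for Btla, and their r with array SD was 0.57 to 0.77.

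**Figure D4:**
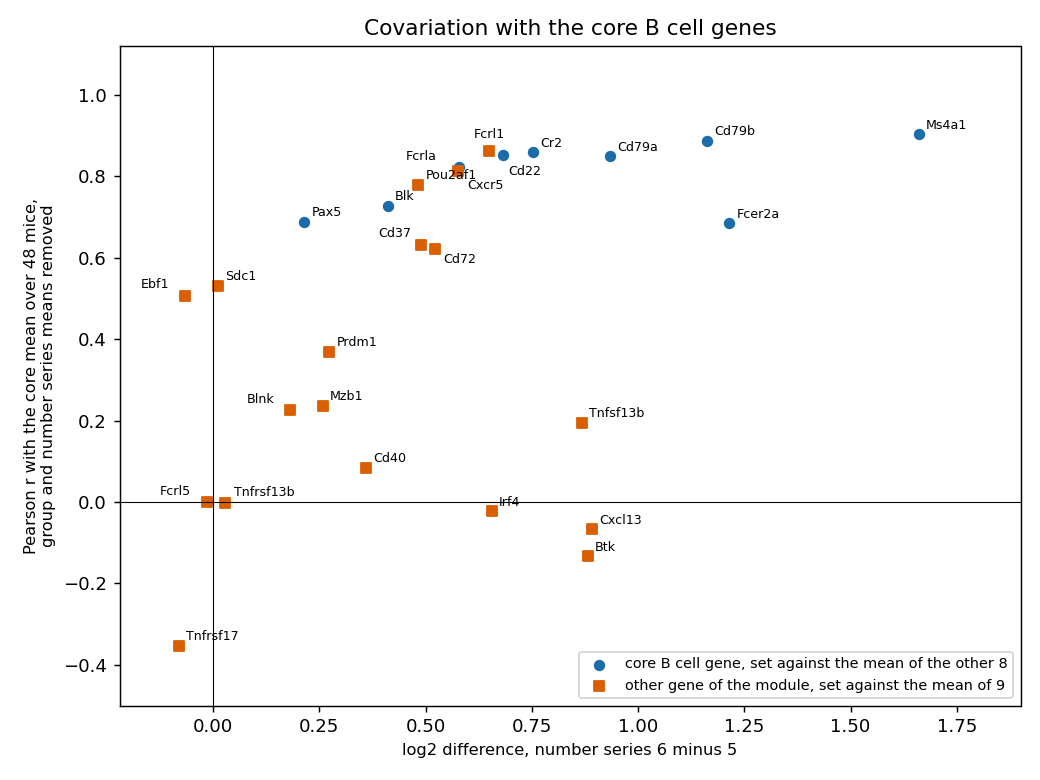
Each of the 27 genes by its log2 difference between number series 6 and 5 (horizontal) and its Pearson r with the core B cell mean over 48 mice after group and number series means were removed (vertical). The 9 core genes, with Fcrl1, Cxcr5, Pou2af1, Cd37 and Cd72, lie at r above 0.6, while Fcrl5, Irf4, Btk and Cxcl13 lie near 0 and Tnfrsf17 at −0.35.

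Other genes of the same pathways gave the following counts, to be read against the 18.8% of all clusters that passed in C57BL/6J and the 1.93% in BALB/cJ. Between the strains 4.66% of all clusters passed in controls and 13.3% after challenge. The share was 37.5% of the measured genes of the B cell receptor pathway and of the secretory programme, 17.6% of those of germinal centres and class switch, 30% (3 of 10) of those of lymphoid tissue organisation and 60% (3 of 5) of those of the BAFF and APRIL pathway in C57BL/6J. Of 16 measured genes of the B cell receptor pathway outside the module, none passed in BALB/cJ, and 5 rose and 1 fell in C57BL/6J: the kinase Syk (0.66 ± 0.15), the paracaspase Malt1, which passes the signal to NF-kappaB, (0.60 ± 0.18), phospholipase Plcg2 (0.60 ± 0.12), the phosphoinositide kinase Pik3cd (0.54 ± 0.10) and the adaptor Dok3 (0.40 ± 0.10) were higher and the co-receptor chain Cd81 (−0.45 ± 0.12) lower. Plcg2, Syk, Pik3cd and Dok3 were also among the 6 (37.5%, against 13.3% of all clusters) that were lower in challenged BALB/cJ than in challenged C57BL/6J mice, by −0.35 to −0.51. Pik3ap1, an adaptor of the same kinase, was lower in BALB/cJ in controls (−0.28 ± 0.08) and after challenge (−0.38 ± 0.08). Several of these genes are expressed in myeloid cells as well.

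Of 17 measured genes of germinal centres and class switching, Mybl1, a factor of dividing germinal centre cells, rose in both strains (0.45 ± 0.10 in BALB/cJ and 0.41 ± 0.10 in C57BL/6J). Its means were 3.99 and 4.44 in control and challenged BALB/cJ mice and 3.98 and 4.39 in C57BL/6J. These levels were as dim as those of Fcrl5, where background and low expression cannot be told apart. The IL-21 receptor Il21r (0.81 ± 0.14) and the uracil glycosylase Ung, which acts in class switching and in base repair of dividing cells (0.57 ± 0.14), rose in C57BL/6J. Il21r was lower in challenged BALB/cJ than in challenged C57BL/6J mice by a log2 difference of −0.97 ± 0.13, and the death receptor Fas was lower in BALB/cJ both in controls (−0.64 ± 0.14) and after challenge (−0.82 ± 0.13). Of 10 genes of lymphoid tissue organisation, Tnfsf11, Tnfrsf11a and Madcam1 rose in C57BL/6J, by 0.36 to 0.59. Of 5 further genes of the BAFF and APRIL pathway, Nfkb2, Tnfaip3 and Map3k14 rose in C57BL/6J, by 0.36 to 0.43. No gene of the last 2 lists passed with challenge in BALB/cJ, and Madcam1 was higher in BALB/cJ than in C57BL/6J controls by 0.38 ± 0.12.

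Of 16 genes of the secretory programme of plasma cells, the endoplasmic reticulum proteins Creld2, Derl3, Fkbp11 and Hsp90b1 and the elongation factor Ell2 rose in C57BL/6J by 0.32 to 0.54, and Herpud1 fell by 0.43. Other secretory cells use these genes too. Xbp1, the factor that expands the secretory apparatus, was higher in challenged BALB/cJ than in challenged C57BL/6J mice by 0.32 ± 0.11. Ly6d was lower in BALB/cJ by a log2 difference of −1.59 in controls and −1.90 after challenge.

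Markers of other cells moved in the same C57BL/6J comparison. Their counts, here and below, are to be read against 18.8% of all clusters in C57BL/6J and 1.93% in BALB/cJ. Between the strains 4.66% of all clusters passed in controls and 13.3% after challenge. In C57BL/6J the shares were 54.5% of T cell, 45.5% of macrophage and monocyte, 25% of dendritic cell, 14.3% of epithelial and 88.9% of proliferation markers. Of 11 T cell markers 6 rose in C57BL/6J, Cd5, Cd3e, Cd6 and Cd4 with the smallest p-values (0.37 to 0.62), and none passed in BALB/cJ. The mean level of the list ranged from 5.71 to 6.53 in control and from 6.03 to 6.91 in challenged C57BL/6J mice, and from 5.72 to 6.77 and from 5.71 to 6.78 in BALB/cJ. Between the strains, Cd3e was higher in BALB/cJ controls (0.48 ± 0.13) and Cd2 lower in challenged BALB/cJ mice (−0.66 ± 0.17). The ranges of the list mean overlapped between control and challenged mice of both strains.

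Of 11 macrophage and monocyte markers 3 rose in BALB/cJ (C1qa, Mrc1 and C1qb, by 0.73 to 0.97) and 5 in C57BL/6J, among them Itgam (0.91 ± 0.24), C1qa (0.89 ± 0.24), Siglec1 (0.44 ± 0.13) and C1qb (0.70 ± 0.21). The list mean ranged from 7.02 to 7.93 in control and from 6.97 to 8.82 in challenged C57BL/6J mice, and from 7.07 to 8.50 and from 7.31 to 8.78 in BALB/cJ. Marco and Siglec1 were lower in BALB/cJ in controls and after challenge, by −0.45 to −0.60. Of 8 dendritic cell markers, Flt3 (0.57 ± 0.19) and Xcr1 (0.42 ± 0.12) rose in C57BL/6J, and Bst2 was lower in BALB/cJ in controls (−0.74 ± 0.17) and after challenge (−1.07 ± 0.15). The dendritic cell list mean ranged from 6.57 to 7.10 in control and from 6.33 to 7.57 in challenged C57BL/6J mice, and from 6.33 to 7.11 and from 6.25 to 7.33 in BALB/cJ.

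Of 6 NK cell markers none passed in either strain. Of 7 epithelial markers Scgb1a1 (0.29 ± 0.09) rose in C57BL/6J, and none passed with challenge in BALB/cJ. Between the strains, Krt18 was higher in challenged BALB/cJ than in challenged C57BL/6J mice (0.54 ± 0.11). Of 9 proliferation markers 8 rose in C57BL/6J and 9 in BALB/cJ, with medians of 1.21 and 1.29. Ccna2, a cyclin of dividing cells, rose by 1.65 ± 0.26 and 1.64 ± 0.25. The proliferation list mean ranged from 5.12 to 6.15 in control and from 5.86 to 7.67 in challenged C57BL/6J mice, and from 5.09 to 7.24 in control and from 5.401 to 7.65 in challenged BALB/cJ mice, so the ranges overlapped in both strains. These lists hold no gene at 0, as log2 array values have no zero, and the part of T cells, myeloid cells and dividing cells in the rises of Irf4, Btk and Blnk was not tested.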

How the data were processed

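Total RNA of the right lower lung lobe of 48 mice was hybridised to 62 arrays. The deposited values are log2 levels of transcript clusters; per the labels, the authors obtained them with the RMA method and a core-exon analysis in Partek Genomics Suite. Its version and the genome build of the array annotation are not given in the sources used here. Partek is also the tool in the submitters' processing notes. Columns of other series numbered 0. Raw intensities were not used here, so the number of arrays and their repeat SD limit the precision.

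Repeat arrays were averaged per mouse. Clusters were named through the platform annotation, using those with 1 symbol (14959 of 16715), with the brightest cluster of a gene. A linear model with 1 mean per group over all 48 mice was fitted with limma 3.58.1 (statmod 1.5.0, R 4.3.3) and p-values were adjusted over all clusters of a comparison. The script was tested on simulated data. The members and gene lists were chosen with earlier results of these data known. Values in every group are given for members past the threshold and for a fixed set of others (Cd79a, Cd79b, Ms4a1, Cr2, Fcer2a, Pax5, Cd22, Fcrla, Blk, Mzb1, Tnfrsf17, Prdm1, Irf4, Sdc1, Cxcl13, Cxcr5, Tnfsf13b). Of other lists, some or all of the genes past the threshold in a comparison are named. The 10 genes most like the core mean are named too. The test between number series, and the combined covariates, were added after the values were seen. RefSeq promoter windows (GRCm38.p6) were searched for the motifs. Alternatives covered the normalization, array spread, number series, repeat arrays, dim clusters, prior, weights, groups in the fit, rows per gene and single mice.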

Additional observations from a re-analysis of the deposited data

Results flagged for a closer look

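The response of Fcrl5 to Der p 1 differed between the strains in the test of that difference itself, by −0.73 on the log2 scale (BALB/cJ minus C57BL/6J, adjusted p = 0.0177). It was higher than the control mean in 12 of 12 challenged C57BL/6J mice, and lower than it in 8 of 14 challenged BALB/cJ mice.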

How the results depend on the processing

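No paired analysis was possible because the repeat numbers in the labels mark arrays of 1 mouse, and nothing in the labels pairs mice across groups. Counts of the 27 genes that passed changed as follows, each given with the percent of all clusters that passed in the same fit. With array weights they were 2 for challenge in BALB/cJ (8.14%), 5 for the strain difference of the response (1759 of 16715 clusters) and 2 for the strains in controls (10.6%). With array SD as a covariate they were 14 for challenge in C57BL/6J (13.5%) and 17 for the strains after challenge (10.6%), and with number series as a covariate 11 (32.8%) and 14 (27%). With both covariates they were 1 for challenge in BALB/cJ (6.79%), 0 for the strain difference of the response (0.00598%), 2 in controls (9.33%) and 14 after challenge (10%). With number series as a covariate and without mouse633 and mouse634 they were 2 for challenge in BALB/cJ (7.46%), 11 for challenge in C57BL/6J (32.3%) and 1 in controls (6.72%). In series 5 alone they were 0 for challenge in C57BL/6J (1.82%), for the strain difference of the response (0%) and for the strains after challenge (1.31%). The strain difference of the response also had 0 after quantile normalization, with the first array of each mouse only, and without the dimmest 25% or 50% of clusters, where Fcrl5 is not tested. Without the dimmest 50%, which leaves 11 of the genes, 3 passed for challenge in C57BL/6J (26%) and 2 for the strains after challenge (17.9%). Leaving out each mouse in turn gave 0 to 0 for challenge in BALB/cJ and in controls, 6 to 10 for challenge in C57BL/6J (7 with all mice), 1 to 1 for the strain difference of the response and 9 to 11 after challenge. No difference that passed with all mice changed its sign in any alternative. Beyond the smaller sets just named, the cause of these moves was not tested. The 4 challenged C57BL/6J mice of series 5 and the lack of raw intensities limit what dim genes such as Fcrl5, Cr2 and Tnfrsf17 can show.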
